A study of Mus musculus with 4 samples.

Results

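The 10 genes followed here belong to the secondary and tertiary granules of neutrophils or encode proteins that these cells secrete as they mature, measured in c-Kit-selected mouse bone marrow: Camp, Ltf, Lcn2, Ngp, Mmp8, Mmp9, Retnlg, Chil1, Chil3 and Cd177. They were chosen by symbol, and all 10 were found among the 28987 genes of the expression table. The 4 libraries came from C57BL/6 bone marrow cells enriched for c-Kit (CD117) with magnetic beads, a fraction that holds stem and progenitor cells. The Hif1a-null group (2 libraries) carried MllPTD/WT, Runx1 Flox/Flox, Hif-1α Flox/Flox and Mx1-Cre. The Hif1a-intact group (2 libraries) carried MllPTD/WT, Runx1 Flox/Flox and Mx1-Cre. All 4 libraries therefore share an Mll partial tandem duplication and floxed Runx1, and the sample titles call all 4 Runx1-null. No library with normal Mll and Runx1 was compared here. Mx1-Cre is driven by an interferon-inducible promoter that acts in many tissues, so the floxed alleles are not restricted to granulocytes. No ages are given in the labels, which also leave unsaid whether each library is a different mouse. The spread behind each p-value is therefore that of these libraries and may be technical.

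Neutrophil granules are filled in waves. Primary granules with myeloperoxidase and serine proteases form in promyelocytes, secondary granules with lactoferrin and cathelicidin in myelocytes and metamyelocytes, and tertiary granules with gelatinase in band and segmented cells. The protein that a granule carries follows from the stage at which its gene is read, and C/EBP-family factors, PU.1 and Runx1 are known regulators of these genes. Of the 10 genes, Mmp8, Mmp9 and Retnlg were placed as later in maturation, and Camp, Ltf, Lcn2, Ngp, Chil3 and Cd177 as earlier. Chil1 was left unplaced, because its stage in mouse marrow could not be given with certainty.

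The letters just upstream of the transcription start are shown for the genes on which the results turn: 2 later genes, Chil1, and the 2 earlier genes with the largest changes. The sequences are 250 bases before the RefSeq start (GRCm38.p6), written 5′ to 3′ on the strand of the gene, with matches to TTGCNNAA (a C/EBP motif) and to TGTGGT or TGCGGT (RUNX motifs) on either strand in capitals. They lie at chr9:7558179-7558428 (Mmp8, plus strand), chr16:48872358-48872607 (Retnlg, plus strand), chr9:111019042-111019291 (Ltf, plus strand), chr1:134181906-134182155 (Chil1, plus strand) and chr3:106167565-106167814 (Chil3, minus strand).
Mmp8: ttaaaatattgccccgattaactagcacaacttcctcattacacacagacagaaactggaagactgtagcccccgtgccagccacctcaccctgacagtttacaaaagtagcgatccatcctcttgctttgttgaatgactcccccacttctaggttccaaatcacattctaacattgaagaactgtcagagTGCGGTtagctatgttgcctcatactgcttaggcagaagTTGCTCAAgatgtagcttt
Retnlg: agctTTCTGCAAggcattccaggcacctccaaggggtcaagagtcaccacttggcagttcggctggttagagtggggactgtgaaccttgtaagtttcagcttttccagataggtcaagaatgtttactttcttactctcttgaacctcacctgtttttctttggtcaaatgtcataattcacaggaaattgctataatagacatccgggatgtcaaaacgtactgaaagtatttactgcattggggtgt
Ltf: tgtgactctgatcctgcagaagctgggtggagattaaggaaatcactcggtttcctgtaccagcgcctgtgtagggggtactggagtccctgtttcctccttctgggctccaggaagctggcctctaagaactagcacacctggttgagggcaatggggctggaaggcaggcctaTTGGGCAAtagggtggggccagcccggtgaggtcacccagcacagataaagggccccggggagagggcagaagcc
Chil1: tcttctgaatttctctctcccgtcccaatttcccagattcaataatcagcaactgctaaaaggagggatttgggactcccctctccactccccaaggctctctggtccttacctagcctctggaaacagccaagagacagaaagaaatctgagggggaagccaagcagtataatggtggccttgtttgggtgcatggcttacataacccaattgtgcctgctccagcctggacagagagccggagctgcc
Chil3: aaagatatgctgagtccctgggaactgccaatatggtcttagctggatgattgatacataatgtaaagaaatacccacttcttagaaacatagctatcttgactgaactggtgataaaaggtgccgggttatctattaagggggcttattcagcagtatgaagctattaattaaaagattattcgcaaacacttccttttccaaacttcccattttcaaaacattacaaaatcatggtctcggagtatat
Mmp8 held TTGCTCAA 19 to 12 bases before its start and TGCGGT 58 to 53 bases before it. Ltf and Retnlg each held 1 match to TTGCNNAA read on the opposite strand, TTGGGCAA from 75 to 68 bases and TTCTGCAA from 246 to 239 bases before the start. Chil1 and Chil3, an unplaced and an earlier gene, held no capitals in this window.

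RefSeq promoters were matched for 9 of the 10 genes, all but Mmp9. TTGCNNAA was found in 5 of the 9 (Ltf, Lcn2, Ngp, Mmp8 and Retnlg), against 9.56% of 32851 mouse promoters of the same length. The PU.1 motif GAGGAAG was found in 2 of 9 (Lcn2 and Mmp8), against 10.6% of promoters. Both motifs were thus matched upstream of Lcn2, an earlier gene, and Mmp8, a later one. TGTGGT was in 0 of 9, against 14% of promoters, and TGCGGT was in 1 of 9 (Mmp8), against 5.1%. The cores of the hypoxia response element, the site known to bind HIF factors, were ACGTG, in 1 of 9 (Ngp, against 16.6% of promoters), and GCGTG, in 0 of 9 (against 28.2%). All motifs were searched on both strands, and no match overlapped another. These matches describe letters in a short window and show no binding.

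Expression is given in TPM, the share of each transcript in a library scaled for its length, so levels of different genes can be set side by side. Depth is unknown, because TPM keep no read counts. The targeted gene itself, Hif1a, did not mark the groups: its level was 98.8 and 113 TPM in Hif1a-null libraries and 100.3 and 75.2 TPM in Hif1a-intact libraries (limma adjusted p = 0.479). A value summed over the gene need not fall when part of a transcript is deleted, and the deleted part is not given in the sources used here, so this neither checks nor contradicts the labels; Hif1a-null below means the libraries labelled so. Kit read 121 and 102 TPM in Hif1a-null and 128 and 126 TPM in Hif1a-intact libraries, and Cd34 179 and 206 TPM in Hif1a-null and 244 and 251 TPM in Hif1a-intact libraries, so both markers of the selected fraction were present. In bulk libraries, a change in the number of cells of a type and a change in RNA per cell cannot be told apart.

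Granule transcripts made up a large part of the RNA in both genotypes. The 10 genes together held 8.57% and 8.40% of all TPM in the Hif1a-null libraries, against 4.60% and 4.60% in the Hif1a-intact libraries. Chil3, which encodes the secreted chitinase-like lectin Ym1, alone held 6.70% and 6.47% of TPM in Hif1a-null and 3.13% and 2.86% in Hif1a-intact libraries. It was the most abundant gene in both Hif1a-null libraries, where it ranked 1, and ranked 2 in both Hif1a-intact libraries. Without Chil3, the other 9 genes held 1.87% and 1.93% of TPM in Hif1a-null against 1.46% and 1.74% in Hif1a-intact libraries, which is a much smaller gap. The least abundant was Mmp8, at rank 3709 and 3546 in Hif1a-null and 9302 and 9534 in Hif1a-intact libraries.

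By level, the order in Hif1a-null libraries was Chil3, Camp, Ngp, Lcn2, Ltf, Retnlg, then Mmp9 and Cd177, whose ranges overlapped, then Chil1 and Mmp8. In Hif1a-intact libraries the order was Chil3, Camp, Ngp, Lcn2, Ltf, Cd177, Mmp9 and Retnlg, then Chil1 and Mmp8, whose ranges overlapped. The earlier genes Chil3, Camp, Ngp, Lcn2 and Ltf thus stood above all later ones in all 4 libraries. Retnlg stood above Mmp9 and Cd177 in both Hif1a-null libraries and below both genes in both Hif1a-intact libraries.

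**Figure D1:**
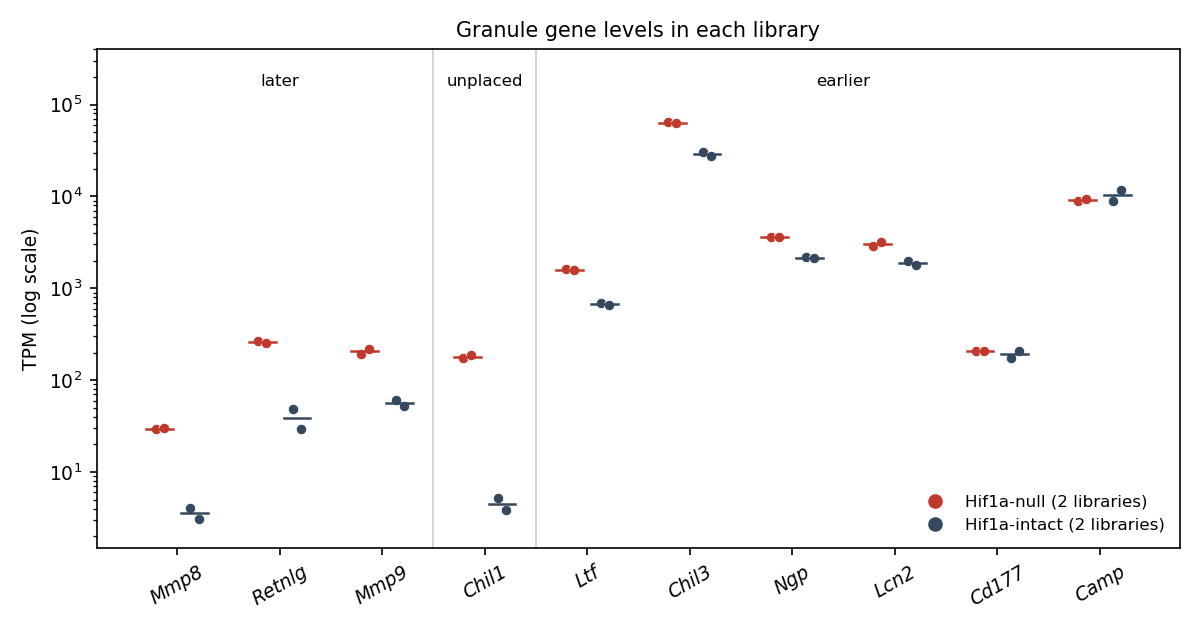
TPM of the 10 granule genes on a log axis, 1 point per library and a bar at each group mean (n = 2), with Hif1a-null libraries (red) left of Hif1a-intact libraries (dark blue) for each gene. The groups are far apart for Chil1, Mmp8, Retnlg and Mmp9, close for Lcn2 and Ngp, and overlap for Camp and Cd177.

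Of the 10 genes, 7 rose in Hif1a-null libraries (limma on log2(TPM + 1), adjusted over 11909 tested genes), 0 fell and 3 did not pass. Across all tested genes 5.25% passed as higher and 2.02% as lower. The groups did not overlap for 8 of the 10, higher in Hif1a-null libraries each time, and for 0 of 10 lower; among all tested genes 22.7% stood higher and 32.3% lower without overlap. The median log2 fold change of the 10 was 1.19, against -0.06 for all tested genes (quartiles -0.28 and 0.20). All 10 genes were above 1 TPM in all 4 libraries, so no direction was fixed by the filter on low values. The calls rest on the close agreement of the Hif1a-null pair: without Hif1a-null replicate 1, 1 of the 10 passed (Chil1, limma adjusted p = 0.0419), and without Hif1a-null replicate 2, 0 passed. In that last fit limma called 0 of all genes, with 958 genes and 7 of the 10 at an unadjusted p under 0.05. Leaving out either Hif1a-intact library left 6 called, without Ngp. The fold changes moved less than the calls and are given with their range for most genes below.

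The 3 later genes rose. Mmp8, the neutrophil collagenase, read 29.1 and 30.5 TPM in Hif1a-null libraries, against 4.06 and 3.11 TPM in Hif1a-intact libraries. Both Hif1a-null values were far above both Hif1a-intact values, a mean of 29.8 ± 0.949 TPM against 3.59 ± 0.672 TPM (SD, n = 2 each), or 8.30-fold. On the log2(TPM + 1) scale, which understates changes of low genes, the difference was 2.75 (SE 0.16, 95% interval 2.32 to 3.19, limma adjusted p = 0.00655). Mmp8 (ENSMUSG00000005800) lies on chromosome 9 at 7558456-7568485 of GRCm38, plus strand.

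Retnlg, a resistin-like protein secreted by neutrophils and their precursors in mice, read 269 and 252 TPM in Hif1a-null libraries, against 48.9 and 29.7 TPM in Hif1a-intact libraries. The groups were far apart although the Hif1a-intact pair was spread widely. The log2 difference was 2.74 (SE 0.27, 95% interval 2.0 to 3.48, limma adjusted p = 0.0153), and the ratio of means 6.63. Retnlg (ENSMUSG00000022651) lies on chromosome 16 at 48872621-48874496, plus strand. With no filter on low values its limma adjusted p was 0.0534, in a range over all alternatives of 0.00765 to 0.144.

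Mmp9, gelatinase B and the enzyme for which tertiary granules are named, read 195 and 216 TPM in Hif1a-null libraries, against 60.2 and 52.9 TPM in Hif1a-intact libraries. Its difference was the smallest of the later genes, 1.85 on the log2 scale (SE 0.15, 95% interval 1.45 to 2.24, limma adjusted p = 0.00996), or 3.64-fold. Mmp9 (ENSMUSG00000017737) lies on chromosome 2 at 164940780-164955850, plus strand. Over 15 alternative fits the log2 differences ranged from 2.02 to 3.03 for Mmp8, from 2.39 to 3.09 for Retnlg and from 1.75 to 1.95 for Mmp9. Osteoclasts also express Mmp9, and of 6 osteoclast markers, 3 of them tested, Acp5 rose (20.1 and 22.2 TPM in Hif1a-null, against 3.63 and 4.08 TPM in Hif1a-intact libraries, limma adjusted p = 0.00706). Ctsk, the collagen-degrading protease of osteoclasts, read 7.01 and 9.66 TPM in Hif1a-null and 1.09 and 2.59 TPM in Hif1a-intact libraries, without overlap (1.75, limma adjusted p = 0.0595). The groups overlapped for Atp6v0d2, the remaining tested marker (0.84, limma adjusted p = 0.484). It read 4.53 and 16.9 TPM in Hif1a-intact libraries and at most 17.7 TPM in Hif1a-null libraries. The summed level of the 6 was 43.3 and 49.8 TPM in Hif1a-null against 9.29 and 23.6 TPM in Hif1a-intact libraries. Most of the 23.6 TPM was Atp6v0d2. The fusion markers Ocstamp and Dcstamp stayed at or below 0.143 TPM and Calcr was listed at 0 in all 4. The part of these markers in the Mmp9 result was not tested.

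Chil1, a secreted chitinase-like protein without chitinase activity, had the largest change of the 10. It read 174 and 188 TPM in Hif1a-null libraries, against 5.17 and 3.85 TPM in Hif1a-intact libraries. The means were 181 ± 10.4 and 4.51 ± 0.930 TPM (SD, n = 2 each), a ratio of 40.1. The log2 difference was 5.06 (SE 0.17, 95% interval 4.58 to 5.53, limma adjusted p = 0.00349), and it stayed between 4.29 and 5.31 in the 15 alternative fits. By level Chil1 stood at rank 629 and 585 in Hif1a-null libraries and at 8819 and 9145 in Hif1a-intact libraries. Chil1 (ENSMUSG00000064246) lies on chromosome 1 at 134182176-134190181, plus strand.

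Among the 6 earlier genes, Ltf, Chil3 and Ngp rose and Lcn2, Cd177 and Camp did not pass. Ltf, the iron-binding lactoferrin, read 1624 and 1581 TPM in Hif1a-null libraries, against 699.8 and 654 TPM in Hif1a-intact libraries. That is 2.37-fold, with a log2 difference of 1.24 (SE 0.13, 95% interval 0.90 to 1.59, limma adjusted p = 0.0164). Over the 15 alternative fits it stayed between 1.19 and 1.33. Ltf (ENSMUSG00000032496) lies on chromosome 9 at 111019271-111042767, plus strand.

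Chil3 read 64447 and 62291 TPM in Hif1a-null libraries, against 30122 and 27349 TPM in Hif1a-intact libraries. The ratio was 2.21 and the log2 difference 1.14 (SE 0.13, 95% interval 0.78 to 1.5, limma adjusted p = 0.0216). Its call is less firm than that of Ltf: with quantile normalization the difference was 0.61 (limma adjusted p = 0.0661), and with a trend in the prior variance the adjusted p was 0.124, in a range over all alternatives of 0.0124 to 0.325. Chil3 (ENSMUSG00000040809) lies on chromosome 3 at 106147554-106167564, minus strand. Alternatively activated macrophages also make Ym1. The summed level of 8 macrophage markers was 91.0 and 95.4 TPM in Hif1a-null against 97.0 and 115 TPM in Hif1a-intact libraries, most of it from Vcam1 (65.3 and 69.7 TPM in Hif1a-null, 54.9 and 80.0 TPM in Hif1a-intact libraries). The complement genes of the list went the other way from the sum: C1qb read 3.69 and 4.56 TPM in Hif1a-null and 1.48 and 1.92 TPM in Hif1a-intact libraries (0.93, limma adjusted p = 0.0577), and C1qc 3.79 and 4.02 TPM in Hif1a-null and 1.13 and 2.45 TPM in Hif1a-intact libraries. C1qa too stood higher without overlap, at 1.52 and 1.31 TPM in Hif1a-null against 0.532 and 0.465 TPM in Hif1a-intact libraries. It passed the filter on low values only through the Hif1a-null libraries, which fixed its direction. None of the 3 complement genes was called. The median log2 difference of the 7 tested markers was 0.69, which is the value of C1qa itself. Of these 7, Mrc1 was called higher, a direction fixed by the filter since neither Hif1a-intact library reached 1 TPM, and Adgre1 fell (-1.53, limma adjusted p = 0.0211, but 0.0511 with no filter on low values, and up to 0.257 over all alternatives). Timd4 was at or near 0 in all 4 libraries, and the part of these markers in the result was not tested.

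Ngp, the neutrophilic granule protein, read 3644 and 3587 TPM in Hif1a-null libraries, against 2167 and 2149 TPM in Hif1a-intact libraries. The pairs were tight, and the log2 difference was 0.74 (SE 0.12, 95% interval 0.41 to 1.08, limma adjusted p = 0.0449), or 1.68-fold. This is just past the threshold. In 8 of 15 alternative fits it did not pass, with adjusted p-values of 0.0273 to 0.564 over all of them, while its difference stayed between 0.64 and 0.84. Ngp (ENSMUSG00000032484) lies on chromosome 9 at 110419747-110423012, plus strand.

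Lcn2, lipocalin 2, which binds bacterial siderophores, read 2894 and 3222 TPM in Hif1a-null libraries, against 1988 and 1804 TPM in Hif1a-intact libraries. The groups did not overlap, yet the log2 difference of 0.69 (SE 0.14, 95% interval 0.30 to 1.07) had a limma adjusted p of 0.0737. It passed in 1 of 15 alternatives, median-ratio rescaling, at 0.78 (limma adjusted p = 0.0494). Lcn2 (ENSMUSG00000026822) lies on chromosome 2 at 32384633-32388252, minus strand.

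Camp, the precursor of the cathelicidin antimicrobial peptide, read 8951 and 9296 TPM in Hif1a-null libraries, against 8917 and 11693 TPM in Hif1a-intact libraries. The groups overlapped, and the log2 difference was -0.16 (SE 0.18, 95% interval -0.66 to 0.33, limma adjusted p = 0.662). Cd177, a surface glycoprotein of neutrophils, read 206.42 and 206.45 TPM in Hif1a-null libraries, against 176 and 208 TPM in Hif1a-intact libraries. Here too the groups overlapped, and the log2 difference was 0.11 (SE 0.15, 95% interval -0.29 to 0.51, limma adjusted p = 0.723). The intervals of both genes leave out differences as large as that of Ltf. Camp (ENSMUSG00000038357) lies on chromosome 9 at 109847379-109849617 and Cd177 (ENSMUSG00000052212) on chromosome 7 at 24743983-24760311, both on the minus strand.

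**Figure D2:**
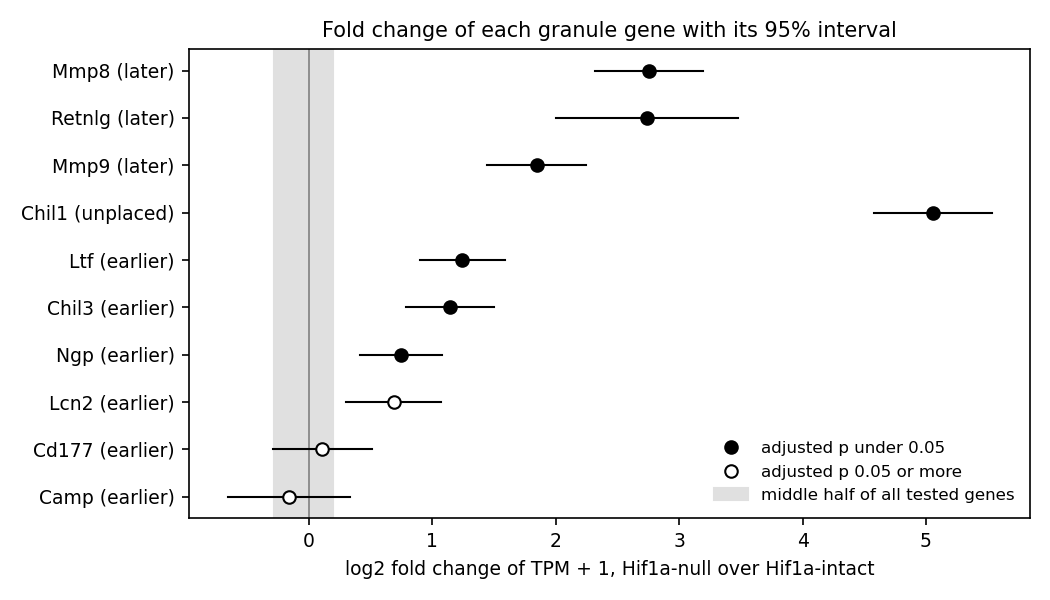
Difference in log2(TPM + 1), Hif1a-null minus Hif1a-intact, for the 10 granule genes with its 95% interval from limma; filled points have an adjusted p under 0.05, and the grey band holds the values between the quartiles of all tested genes (-0.28 and 0.20). Chil1 stands at 5.06, the 3 later genes between 1.85 and 2.75, and the 6 earlier genes between -0.16 and 1.24.

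As placed here, later genes differed between the genotypes by more than earlier ones. The classes were drawn with earlier results of these data known, so this describes the genes and is no independent support. Most earlier genes also stood at higher levels than the later ones, so class and level cannot be told apart. The 3 later genes had a median log2 difference of 2.74 (range 1.85 to 2.75), and the 6 earlier genes a median of 0.72 (range -0.16 to 1.24). The smallest later value (Mmp9) lay above the largest earlier value (Ltf), although their 95% intervals overlapped. Averaged over genes, the later class stood at 6.87 and 6.91 on the log2(TPM + 1) scale in Hif1a-null libraries and at 4.64 and 4.24 in Hif1a-intact libraries. The earlier class stood at 11.80 and 11.82 in Hif1a-null and at 11.16 and 11.20 in Hif1a-intact libraries. Within each library the later mean thus lay below the earlier mean, by a difference of -4.93 and -4.91 in Hif1a-null and of -6.52 and -6.96 in Hif1a-intact libraries.

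The gap between the classes was 1.82 log2 units narrower in Hif1a-null libraries. No p is given, since the smallest that an exact permutation test of 2 against 2 libraries allows is 0.333. A ratio within a library does not depend on how the library was scaled, apart from the pseudocount. Of the 18 ratios of a later to an earlier gene, 18 were higher in both Hif1a-null libraries than in either Hif1a-intact library, by 0.60 (Mmp9 over Ltf) to 2.92 log2 units (Mmp8 over Camp). These ratios share genes and are not independent. Their direction also followed from the smallest later difference lying above the largest earlier one, so the count restates that gap and adds no support. Counting Chil1 as later gave 2.47, and counting it as earlier gave 1.19. Counting Mmp8 as earlier gave 1.36. The size of the gap thus depends on where Chil1 and Mmp8 are placed and its direction does not.

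**Figure D3:**
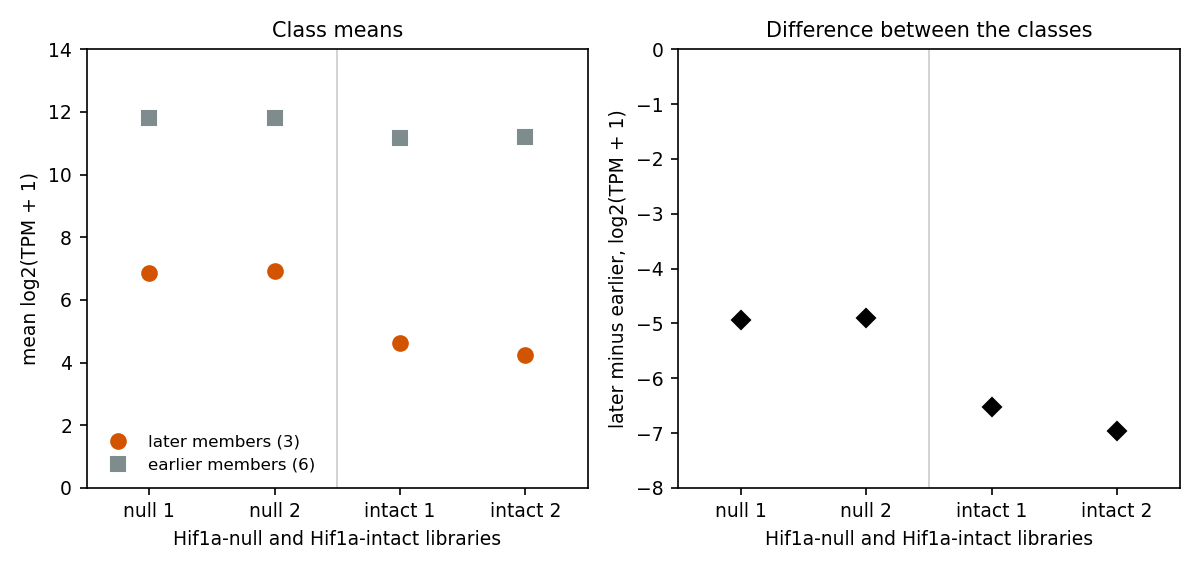
Mean log2(TPM + 1) of the 3 later and the 6 earlier granule genes in each library (left panel), and the later minus the earlier mean (right panel), Hif1a-null libraries left of Hif1a-intact libraries. The later mean stands at 6.87 and 6.91 in Hif1a-null and 4.64 and 4.24 in Hif1a-intact libraries, and the difference at -4.93 and -4.91 in Hif1a-null and -6.52 and -6.96 in Hif1a-intact libraries.

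Genes of the primary granules, which form before the secondary ones, did not pass. Of 7 primary granule genes, 0 rose and 0 fell, where 5.25% of all tested genes were called higher and 2.02% lower. Their median log2 difference was -0.12 (range -0.44 to 0.37). Without overlap 1 stood higher (Prtn3) and 2 lower (Mpo and Ms4a3), against 22.7% and 32.3% of all tested genes. Mpo, myeloperoxidase, read 1926 and 1950 TPM in Hif1a-null and 2859 and 2326 TPM in Hif1a-intact libraries (-0.41, limma adjusted p = 0.232). Elane, neutrophil elastase, read 1914 and 1848 TPM in Hif1a-null and 2010 and 1518 TPM in Hif1a-intact libraries (0.11, limma adjusted p = 0.790). Prtn3, proteinase 3, read 2328 and 2459 TPM in Hif1a-null and 1790 and 2171 TPM in Hif1a-intact libraries (0.28, limma adjusted p = 0.382). The 3 best known primary granule enzymes thus showed neither a common direction nor a call.

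A further 16 genes of secondary and tertiary granules were listed, of which 15 could be tested and Ptx3 could not. Of these 2 rose, 0 fell and 13 did not pass, with a median log2 difference of 0.38. Itgb2l, a β2-like integrin of mice, read 83.6 and 80.5 TPM in Hif1a-null, against 10.6 and 8.94 TPM in Hif1a-intact libraries (2.95, limma adjusted p = 0.00503). Lyz2, lysozyme of myeloid cells, read 7005 and 7048 TPM in Hif1a-null, against 3382 and 3402 TPM in Hif1a-intact libraries (1.05, limma adjusted p = 0.0217; 0.0537 with a trend in the prior variance, and up to 0.382 over all alternatives). Itgb2l moved as far as the later genes, and Lyz2 about as far as Chil3. Clec5a, a myeloid lectin receptor, read 169 and 182 TPM in Hif1a-null and 86.0 and 110.0 TPM in Hif1a-intact libraries (0.85, limma adjusted p = 0.0757). Cybb, the catalytic subunit of the phagocyte oxidase, read 313 and 342 TPM in Hif1a-null and 199 and 245 TPM in Hif1a-intact libraries (0.57, limma adjusted p = 0.148).

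Of 20 genes of mature neutrophils outside these granules, 19 could be tested and Il1b could not. Here 6 rose, 0 fell and 13 did not pass, with a median of 0.43. Ly6g, the surface antigen used to identify mouse neutrophils, read 129 and 162 TPM in Hif1a-null, against 26.1 and 24.9 TPM in Hif1a-intact libraries (2.46, limma adjusted p = 0.00803). Fpr2, a formyl peptide receptor, read 55.0 and 61.3 TPM in Hif1a-null, against 11.1 and 10.7 TPM in Hif1a-intact libraries (2.31, limma adjusted p = 0.00655). Both groups of libraries were as clearly apart for these genes as for Mmp8. Cxcr2, the chemokine receptor of mature neutrophils, read 22.1 and 20.1 TPM in Hif1a-null, against 8.60 and 5.76 TPM in Hif1a-intact libraries (1.45, limma adjusted p = 0.0372). Its call was lost with no filter on low values (limma adjusted p = 0.0851), a mean of at least 5 TPM (0.0526) and a pseudocount of 0.1 (0.0562), with values up to 0.306 over all alternatives. Fpr1, the other formyl peptide receptor of the list, read 10.13 and 10.13 TPM in Hif1a-null, against 1.30 and 0.871 TPM in Hif1a-intact libraries (2.42, limma adjusted p = 0.00779). These 4 receptors and surface antigens had differences within the range of the later granule genes, except Cxcr2, which lay below Mmp9.

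**Figure D4:**
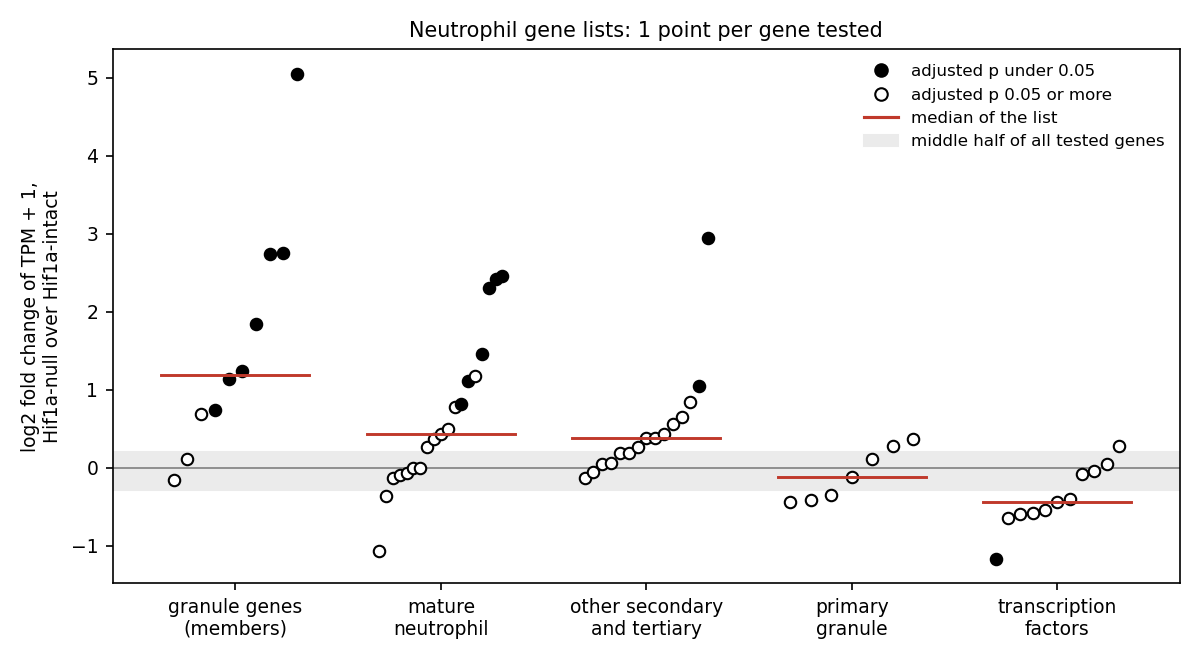
Difference in log2(TPM + 1), Hif1a-null minus Hif1a-intact, for each tested gene of 5 lists, in order of its value within the list; filled points passed the limma test, red lines are list medians, and the grey band lies between the quartiles of all tested genes. The primary granule genes lie between -0.44 and 0.37, while the 10 followed genes reach 5.06 and the mature neutrophil genes 2.46.

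Transcription factors that act in neutrophil formation were not called higher with the granule genes. Of 11, 0 rose, 1 fell and 10 did not pass, with a median log2 difference of -0.43. Spi1, the gene of PU.1, read 130 and 147 TPM in Hif1a-null and 137 and 156 TPM in Hif1a-intact libraries. Its groups overlapped (-0.08, limma adjusted p = 0.810), as did those of Irf8 (-0.04), Mybl2 (0.05) and Cebpd (-0.43). Without overlap 1 of the 11 stood higher in Hif1a-null libraries and 6 lower, against 22.7% and 32.3% of all tested genes. The higher one was Klf5 (0.28, limma adjusted p = 0.445). The lower ones included Cebpb (-0.58, limma adjusted p = 0.173) and Myb (-0.60, limma adjusted p = 0.136). Cebpa, needed for entry into the granulocyte lineage, fell to 12.99 and 13.6 TPM in Hif1a-null libraries, against 28.6 and 33.8 TPM in Hif1a-intact libraries (-1.17, limma adjusted p = 0.0260). Cebpe, needed for secondary granules, read 48.5 and 50.7 TPM in Hif1a-null and 59.4 and 72.5 TPM in Hif1a-intact libraries (-0.40, limma adjusted p = 0.239). Gfi1, a repressor needed for granulopoiesis, read 52.4 and 47.6 TPM in Hif1a-null and 72.3 and 74.0 TPM in Hif1a-intact libraries (-0.54, limma adjusted p = 0.105). None of these 3 factors was called higher, and the part of their RNA levels in the granule results was not tested. Runx1 was floxed and labelled null in both groups. It read 48.4 and 46.7 TPM in Hif1a-null and 73.6 and 76.6 TPM in Hif1a-intact libraries (-0.65, limma adjusted p = 0.0636). The groups did not overlap for Runx1, and the part of this gap in the granule results was not tested.

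Paralogs were examined because kallisto divides reads among similar transcripts by an estimate. Counting as near-identical an identity of 95% across 50% or more of the shorter of a pair of transcripts, none of the 10 had a near-identical copy among the annotated transcripts. Across 50% or more, the nearest were to Chil3, whose transcript is 94.3% identical to Chil4 over 1540 bases. It is also 94.96% identical, just under that mark, to Gm6522 over 1171 bases, and Gm6522 is not analysed here. Over shorter stretches, Cd177 was 96.04% identical to Gm4763 (303 bases) and 95.6% identical to BC049730 (275 bases). These covered 34.4% and 23.5% of the shorter transcript, and both genes stayed at or below 0.062 TPM in all 4 libraries. Chil4, which encodes the related lectin Ym2, rose to 8.94 and 11.8 TPM in Hif1a-null libraries, against 2.74 and 3.15 TPM in Hif1a-intact libraries (1.52, limma adjusted p = 0.0238). That call was lost with no filter on low values (limma adjusted p = 0.0579) and on leaving out Hif1a-intact replicate 1 (0.0575) or 2 (0.0609), with values up to 0.265 over all alternatives. Reads of the far more abundant Chil3 could be assigned to it, so the Chil4 value is uncertain. Retnla, 84.1% identical to Retnlg over 567 bases, stayed at or below 0.224 TPM in all 4 libraries. Of the other matrix metalloproteinases listed, Mmp12 did not pass, Mmp2 and Mmp13 were too low to test, and Mmp3 and Mmp10 were listed at 0 in all 4.

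Markers of other lineages also moved between the groups. The summed level of 8 erythroid markers was 713 and 649 TPM in Hif1a-null against 67.1 and 49.6 TPM in Hif1a-intact libraries, and 7 of the 8 rose. Of 6 B-lineage markers 5 were tested and 4 rose, with a sum of 22.0 and 22.0 TPM in Hif1a-null against 10.8 and 6.48 TPM in Hif1a-intact libraries. Of 7 eosinophil markers 4 were tested, 2 rose and 1 fell, with a sum of 96.2 and 95.7 TPM in Hif1a-null against 66.1 and 55.0 TPM in Hif1a-intact libraries. Most of the eosinophil sum in Hif1a-null libraries was Prg2 (76.3 and 76.7 TPM, against 30.1 and 26.9 TPM in Hif1a-intact libraries). The eosinophil marker that fell was Siglecf, at 7.88 and 7.91 TPM in Hif1a-null against 30.6 and 24.5 TPM in Hif1a-intact libraries (-1.67, limma adjusted p = 0.0149). Summed markers of the erythroid, B and eosinophil lists were higher in both Hif1a-null libraries, while the next 2 sums were lower. The monocyte sum (8 markers, 6 tested, 1 higher, 0 lower) was 547 and 555 TPM in Hif1a-null against 665 and 617 TPM in Hif1a-intact libraries. Its largest part was F13a1 (264 and 279 TPM in Hif1a-null, 375 and 354 TPM in Hif1a-intact libraries). The marker called higher was Ccr2, at 50.7 and 49.9 TPM in Hif1a-null against 11.3 and 8.48 TPM in Hif1a-intact libraries (limma adjusted p = 0.00988). Of the 8 monocyte markers, 4 stood higher and 2 lower without overlap, so the sum does not speak for the list. The stem and progenitor sum (8 markers, 7 tested, 1 higher, 2 lower) was 466 and 468 TPM in Hif1a-null against 605 and 535 TPM in Hif1a-intact libraries. Klf1, Alas2 and Epor among the erythroid markers, all 4 B-lineage markers called, and Ear2 of eosinophils passed the filter only through the Hif1a-null libraries, which fixed their direction. The make-up of the selected fraction therefore differed in marker RNA beyond the granule genes, and its part in the granule results was not tested.

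The genes whose pattern over the 4 libraries was most like the mean of the later class, by Euclidean distance between centred log2(TPM + 1) values among 8777 genes, were Fpr1 (distance 0.0779), Daam1 (0.0804), Tal1 (0.0946), Ces2g (0.139) and Oas1a (0.154). They include a neutrophil receptor, Fpr1, and an erythroid and megakaryocyte transcription factor, Tal1. Nearest to the mean of the earlier class were Rnf123 (0.0258), Slc16a1 (0.0337), Ccna2 (0.0417), Gpx3 (0.0570) and Xk (0.0608). With 2 groups of 2 libraries, such a distance mostly compares the size of 1 step between groups.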

How the data were processed

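RNA of c-Kit-selected bone marrow cells was sequenced as standard Illumina libraries, per the labels' protocols. The tool kallisto and the build mm10 are named per the submitters' processing notes; its version, transcripts and strandedness are not stated there. TPM values per Ensembl gene were deposited by the authors for each library, a unit inferred from column sums of 955562 to 963135; depth is unknown, and no interval on counts can be given. Symbols came by Ensembl ID from a reference list of gene names, for 27458 of 28987 genes. Positions came by Ensembl ID from GENCODE vM21 (GRCm38), for 27475 genes.

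Groups came from the genotype labels. limma 3.58.1 in R 4.3.3 (lmFit, eBayes, trend and robust off, two-sided) was fitted on log2(TPM + 1) to the 11909 genes that reached 1 TPM in 2 or more libraries. Calls were made at a Benjamini-Hochberg adjusted p under 0.05. Differences run as Hif1a-null minus Hif1a-intact. The fit was tested on simulated data with independent noise for each gene and no effect shared by a library. That checks the code and not how libraries of a group vary. Copies were searched with blastn 2.17.0 among GENCODE transcripts, and motifs in RefSeq promoters (GRCm38.p6). Of each gene list, up to 4 members of smallest p were named, or any primary granule or transcription factor gene. The members, classes and lists were chosen with earlier results of these data known, so they are no independent support. The 15 alternatives covered scaling, filter, pseudocount, prior variance, gene set, copies and each library left out.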

Additional observations from a re-analysis of the deposited data

How the results depend on the processing

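Of the 10 granule genes 7 were called higher. Of the other 11 settings, the count was 5 with quantile normalization or a trend in the prior variance and 8 with median-ratio rescaling; it was 6 to 7 in the rest. Ltf, Mmp8, Mmp9 and Chil1 passed in all 11. Leaving out each library in turn gave 0 to 6 called. Over the whole table, genes called higher numbered 625 and genes called lower 241. A mean of at least 5 TPM gave 231 and 112, a pseudocount of 5 gave 399 higher, no filter gave 138 lower, and leaving out each library gave 0 to 731 higher and 0 to 288 lower.

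The later minus earlier difference of 1.82 was 1.51 with a pseudocount of 5, 1.45 from sums of TPM, 1.36 with Mmp8 counted as earlier, 2.12 with Mmp9 left out, 1.19 with Chil1 as earlier and 2.47 with Chil1 as later; the cause was not tested. It was positive in every alternative run.

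Signs turned only for genes that were not called. Spi1 was 0.0075 with quantile normalization and 0.012 with median-ratio rescaling. Irf8 was 0.059, 0.049 and 0.023 with quantile normalization, median-ratio rescaling and genes above 5000 TPM left out of the scaling. With 1 library left out, the log2 differences ranged from -0.36 to 0.033 for Camp, from -0.011 to 0.23 for Cd177, from -0.0064 to 1.69 for Atp6v0d2, from -0.17 to 0.014 for Spi1, from -0.24 to 0.16 for Irf8, from -0.086 to 0.19 for Mybl2, from -0.096 to 0.31 for Elane and from -0.72 to 0.012 for Ctsg.

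With 2 libraries a group, leaving 1 out takes the spread from the other group's pair, so the lone library is assumed to vary like that pair. TPM keep no counts, so no limit from depth was set. No paired analysis was possible because the labels give no replicate numbers that tie libraries across the groups.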

Other observations

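Of the 20 nearest tested neighbours of the 10 granule genes on their chromosomes, 3 were called higher in Hif1a-null libraries (limma) and 0 lower, where 5.25% of all tested genes were called higher and 2.02% lower; the other 17 did not pass. Besides Chil4, beside Chil3, whose call is uncertain as given above, these were Ceacam10 and Als2cl. Ceacam10, a carcinoembryonic antigen-family gene 16895 bases from Cd177, read 17.9 and 18.1 TPM in Hif1a-null libraries, against 5.53 and 4.14 TPM in Hif1a-intact libraries (log2 difference 1.71, limma adjusted p = 0.0153), while Cd177 itself did not pass. Als2cl, 118741 bases from Ltf, read 1.43 and 2.01 TPM in Hif1a-null libraries, against 0.258 and 0.224 TPM in Hif1a-intact libraries (1.13, limma adjusted p = 0.0342); it passed the filter on low values only through the Hif1a-null libraries, which fixed its direction. Of the neighbours of Camp, Cdc25a, a cell-cycle phosphatase, read 25.6 and 25.9 TPM in Hif1a-null and 15.8 and 17.6 TPM in Hif1a-intact libraries (0.60, limma adjusted p = 0.0866), where Camp did not differ beyond its spread.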
